A study of Mus musculus with 6 samples.

Results

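CD69+ T cells from tolerant mice were compared with CD69- T cells from the same kind of mice, 2 of the 6 samples of the series, chosen by their sample titles. The same difference in naive mice and in rejecting mice, 2 samples each, served as the measure of a usual response. All mice were male C57BL/6 mice, and the T cells came from spleen and lymph node. Tolerant mice carried tail skin of BDF1 donors, the F1 cross of C57BL/6 and DBA/2, and had received a donor-specific transfusion together with MR-1, an antibody against CD40L, and their cells were taken on day 100 after grafting. Rejecting mice carried the same kind of skin, had no treatment and were sampled on day 7. Naive mice were healthy and ungrafted. T cells of all 3 kinds, the CD69- cells included, were cultured for 20 to 21 h with splenocytes of the donor strain that had been depleted of T cells, and were then sorted on CD3 and CD69. Transfusion, antibody and time after grafting differ together between tolerant and rejecting mice and cannot be told apart, and the labels do not say how many mice gave each sample. The sorting note in the labels writes the CD69+ gate for both fractions, so the fractions are named here by the sample titles.

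CD69 is a surface protein that T cells display within hours of a signal through their antigen receptor, so the CD69+ fraction of such a culture is enriched for cells that met their antigen, and it can also hold cells reached only by cytokines. An activated T cell leaves a resting state upheld by factors such as Klf2, makes interleukin 2 and effector cytokines, and builds ribosomes and nucleotides ahead of division. Blockade of CD40L, through which T cells signal to antigen-presenting cells, during a donor transfusion is a known way to prolong the survival of a graft, and regulatory T cells marked by Foxp3 are among the cells studied in such tolerance.

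Each sample was hybridised to 1 Illumina MouseWG-6 array. A level is the background-corrected, quantile-normalised log2 signal of a probe, and the difference in a pair is the level in CD69+ minus that in CD69- cells, so that a log2 difference of 1 is a 2-fold difference. No combination of mouse and fraction was repeated, so a difference within a pair has no error and no test, and levels of different genes are not set against each other. A probe was called detected on an array at a detection p under 0.01, and 12669 to 13469 probes were detected per array. The 10687 features detected on at least 1 array, 8347 of them named genes, were described. The pan-T cell marker Cd3e and Cd4 were detected on all 6 arrays, whereas the probe of Cd8a was not detected on any. Cd69 itself, the gene of the sorted protein, had levels of 13.31 in tolerant CD69+ and 11.21 in CD69- cells, 13.76 and 12.53 in naive, and 13.89 and 12.65 in rejecting cells. CD69+ cells stood higher in every pair on this probe, while a second detected Cd69 probe was lower in CD69+ cells by a log2 difference of -0.46 in the tolerant, -0.69 in the naive and -0.67 in the rejecting pair.

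Most of the activation response was present in the tolerant pair, at a smaller size. Among the tolerant samples, CD69+ cells exceeded CD69- cells by 2-fold or more in 1452 features (13.6%) and fell short by as much in 1217 (11.4%). Naive mice had 1810 (16.9%) and 1918 (17.9%) such features, and rejecting mice 1703 (15.9%) and 1582 (14.8%). With array medians centred in place of quantiles, the tolerant counts were 1917 higher and 746 lower, or 72% higher in place of 54.4%, and the median of all features moved from -0.05 to 0.15 in the tolerant and from -0.05 to 0.16 in the rejecting pair. Across all features, which are not independent replicates, the tolerant differences had a Pearson r of 0.84 with the naive and 0.858 with the rejecting differences, while naive and rejecting differences had an r of 0.95. No array is shared between pairs.

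A shared response was defined from the naive and rejecting pairs alone, as a difference of at least 2-fold in the same direction in both, and was then read in the tolerant pair. A feature was called kept if it was at least 1.5-fold different in the same direction, blunted if its difference was at least 2-fold smaller than in either other pair, stronger if at least 2-fold larger than in either, opposite if at least 1.5-fold the other way, and weak otherwise. Of 1485 shared higher features, 1302 (12.2% of all features) were kept, 50 (0.468%) were stronger, 78 (0.73%) were blunted, 55 (0.515%) were weak and 0 were opposite. Of 1389 shared lower features, 1264 (11.8%) were kept, 0 were stronger, 47 (0.44%) were blunted, 78 (0.73%) were weak and 0 were opposite. Even without the 1.5-fold minimum, the sign differed in only 10 shared higher and 6 shared lower features. The response was thus in the usual direction almost throughout, and in 91% of each set it was kept or stronger.

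The size was smaller. The median ratio of the tolerant difference to the mean of the other pairs was 0.793 for shared higher and 0.744 for shared lower features, and the tolerant difference was the smallest of the 3 in 1098 features of each set, or 73.9% and 79%. Choosing features on 2 pairs lowers the remaining pair by choice alone, so each other pair was read in the same way. The naive pair, read on features shared by tolerant and rejecting pairs, had median ratios of 1.084 and 1.223, with 19 blunted of 1125 and 1 of 941. The rejecting pair had 1.026 and 0.947, with 12 blunted of 1110 and 6 of 1036. Among blunted shared higher features the tolerant CD69+ level deviated more than the CD69- level in 71 of 78, by a median of -1.07 from the mean of the other CD69+ samples, against 0.28 for CD69- cells. So it did in 1065 of the 1302 kept shared higher features, and thus not only in blunted ones. Among blunted shared lower features the CD69+ level deviated more in 30 and the CD69- level in 17 of 47. Fewer responding cells in the CD69+ fraction and less RNA per cell cannot be told apart in such bulk samples.

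**Figure D1:**
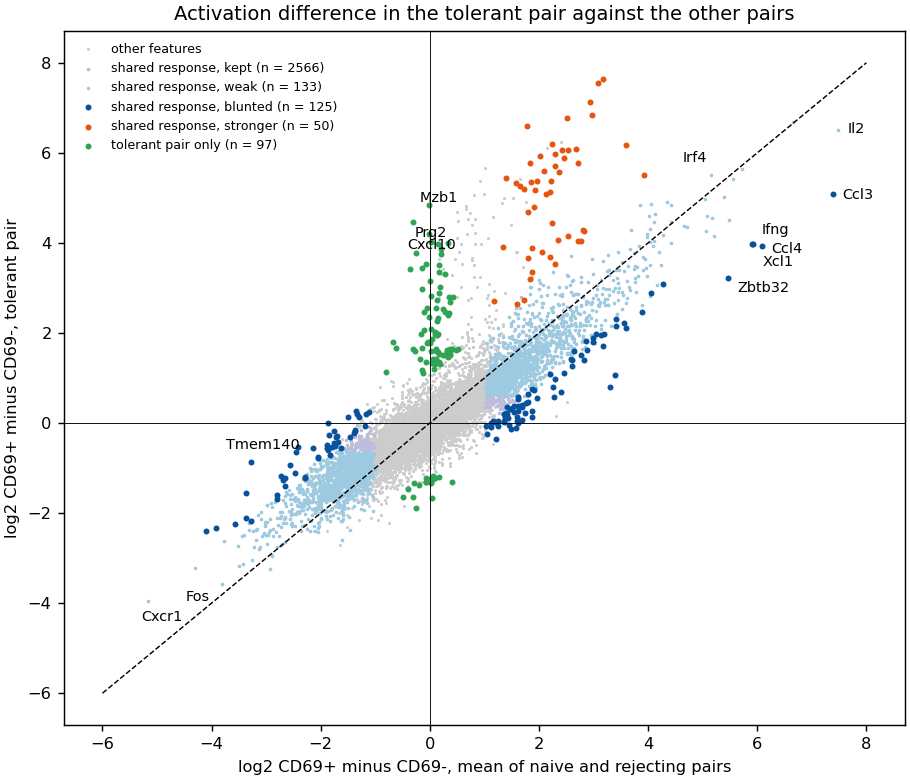
Each point is 1 of 10687 features, with the mean log2 difference of the naive and rejecting pairs on the horizontal axis and that of the tolerant pair on the vertical axis, and the dashed line marks equal differences. Most shared responses lie near the line but closer to 0, blunted ones (125 in all) include Ccl3, Ccl4 and Ifng, and a column of 79 features near 0 on the horizontal axis is higher in the tolerant pair only.

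Early activation genes and most cytokines were kept. Of 23 measured early activation genes, 20 were at least 2-fold higher in tolerant CD69+ cells and none was 2-fold lower, with a median log2 difference of 2.31 against 2.62 in the naive and 2.53 in the rejecting pair and -0.05 over all features. Of the 20 that were shared, 19 were kept and 1, Zbtb32, was blunted. The median ratio of these 20 to the other pairs was 1.06, against 0.793 for all shared higher features. Over the 23 genes 11 lay above and 7 below both other pairs, so the list as a whole was not smaller in the tolerant pair. Il2, the growth factor gene of activated T cells, had levels of 12.24 in tolerant CD69+ and 5.73 in CD69- cells, 13.56 and 6.10 in naive, and 13.43 and 5.92 in rejecting cells. It was not detected in any CD69- sample, so the fold is a lower bound, at least 47.5-fold in tolerant, 128-fold in naive and 97.9-fold in rejecting mice. Its tolerant CD69+ level was the lowest of the CD69+ samples by more than 1 log2 unit. With undetected levels taken as measured, its tolerant difference was 0.94 log2 units below that of the naive pair, just short of blunted.

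Irf4, a transcription factor that scales with receptor signal strength, had levels of 12.30 in tolerant CD69+ and 6.79 in CD69- cells, 13.15 and 8.21 in naive, and 13.09 and 7.72 in rejecting cells. Both tolerant levels were the lowest of their fraction, and the difference, 45.5-fold, was the largest of the 3 pairs. Tnf, an inflammatory cytokine gene, was 11.17 in tolerant CD69+ and 6.99 in CD69- cells, 11.58 and 7.56 in naive, and 11.69 and 7.16 in rejecting cells. Its difference of 18.1-fold lay between the 16.2-fold of naive and the 23.1-fold of rejecting mice, while a second Tnf probe had its smallest log2 difference in the tolerant pair, at 3.94 against 4.30 and 5.04. Egr2 and Egr3, zinc finger factors downstream of calcium signals, were 10.4-fold and 12.5-fold higher, against 8.0-fold and 6.52-fold in naive and 11.3-fold and 9.45-fold in rejecting mice. Cd83, a surface activation marker, was 28.5-fold higher, against 12.8-fold and 16.2-fold. Myc, which drives cell growth, was 4.46-fold higher, against 8.21-fold in naive and 4.97-fold in rejecting mice.

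Of 17 measured cytokine genes, 12 were at least 2-fold higher in tolerant CD69+ cells, with a median of 3.07 against 2.99 and 3.00, and 9 of 17 lay below and 3 above both other pairs. In the authors' value table the cytokine medians were 1.91 in the tolerant, 2.18 in the naive and 2.17 in the rejecting pair, so that the tolerant one was then the lowest. The type 2 cytokine gene Il4 was at least 11.1-fold higher in tolerant, 16.3-fold in naive and 17.9-fold in rejecting mice, and Il3, a growth factor gene for blood cells, at least 7.70-fold, 21.6-fold and 10.9-fold. Neither was detected in any CD69- sample. Some unnamed probes differed further, by log2 values of up to 7.64. Among named genes, large tolerant differences beyond these were those of Bcat1, an enzyme of branched-chain amino acid breakdown, at least 45.5-fold, Mzb1, described below, Hivep3, at 22.1-fold, Cdca7, a Myc-responsive nuclear gene, at 19.7-fold, Lad1, at least 18.9-fold, and Uhrf1, which helps to copy DNA methylation, at least 18.7-fold. Except for Mzb1 all of these were as far apart in the naive and rejecting pairs, by log2 differences of 3.98 to 6.69 with undetected levels taken as measured.

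Some type 1 effector genes were blunted and others were kept. Of 16 measured type 1 helper genes 10 were shared responses, 5 of them blunted and 5 kept. Among all shared higher features 5.25% were blunted. Over the 16 genes 5 lay below and 5 above both other pairs. The blunted ones of the list were Ifng, Ccl3, Ccl4, Xcl1 and Tbx21. A proportional shortfall reaches the 2-fold limit of blunting more easily in large responses. As a median ratio to the other pairs the 10 stood at 0.68, against 0.793 for all shared higher features. Ifng, which encodes interferon gamma, the main cytokine of type 1 helper and CD8 T cells, had levels of 10.76 in tolerant CD69+ and 6.79 in CD69- cells, 13.84 and 8.08 in naive, and 13.52 and 7.46 in rejecting cells. Both tolerant levels were the lowest of their fraction, and the CD69+ level lay more than 2 log2 units under the others. The difference was 15.6-fold in tolerant, 54.2-fold in naive and 66.7-fold in rejecting mice, and the test of the tolerant against the other pairs, whose spread comes from naive against rejecting alone since the tolerant pair has no replicate, gave a log2 value of -1.94 (SE 0.23) with a limma adjusted p of 0.057, short of the threshold of 0.05. A second Ifng probe differed by 3.23 in the tolerant pair against 5.76 and 5.68.

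Ccl3, an inflammatory chemokine, was 10.95 in tolerant CD69+ and 5.87 in CD69- cells, 13.34 and 6.05 in naive, and 12.95 and 5.46 in rejecting cells. No CD69- sample had a detected level, so the folds are bounds of at least 19.4, 110 and 70.2. Ccl4, its close relative, was 13.58 in tolerant CD69+ and 9.64 in CD69- cells, 15.51 and 9.53 in naive, and 15.09 and 8.90 in rejecting cells, or 15.3-fold, 63.1-fold and 73.0-fold. The tolerant CD69- level was close to the naive one, and the shortfall lay in the CD69+ sample. Both chemokines passed the test of the difference between pairs, at -2.30 (SE 0.22, limma adjusted p = 0.0368) for Ccl3 and -2.15 (SE 0.22, limma adjusted p = 0.0407) for Ccl4.

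Xcl1, a chemokine for cross-presenting dendritic cells, was 12.06 in tolerant CD69+ and 8.09 in CD69- cells, 13.42 and 6.94 in naive, and 12.64 and 7.27 in rejecting cells. Here the tolerant CD69- level was also the highest of its fraction, and the difference of 15.7-fold compared with 89.0-fold and 41.4-fold (limma adjusted p = 0.189). Zbtb32, a repressor induced in activated T cells, was likewise higher in tolerant CD69- cells, at 7.22 against 6.49 and 5.77, both not detected, and lower in CD69+ cells, at 10.45 against 11.67 and 11.53 (limma adjusted p = 0.085). Tbx21, the master regulator of type 1 helper cells, was 2.70-fold higher in tolerant, 6.46-fold in naive and 5.53-fold in rejecting mice (limma adjusted p = 0.139). Cyp11a1, the enzyme that starts steroid synthesis, was detected in naive and rejecting CD69+ cells, at 8.16 and 8.74, but in neither tolerant sample, at 6.22 and 5.44, so that it was among the features tested only through the samples in which it is high (log2 value -2.51, SE 0.25, limma adjusted p = 0.0398). Ccl3, Ccl4 and Cyp11a1 were the 3 features (0.0281%) that this test called lower in the tolerant pair, and when limma was run on named genes alone no gene was called, with an adjusted p of 0.129 for each of these 3 and 1519 of 8347 genes at an unadjusted p under 0.05.

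**Figure D2:**
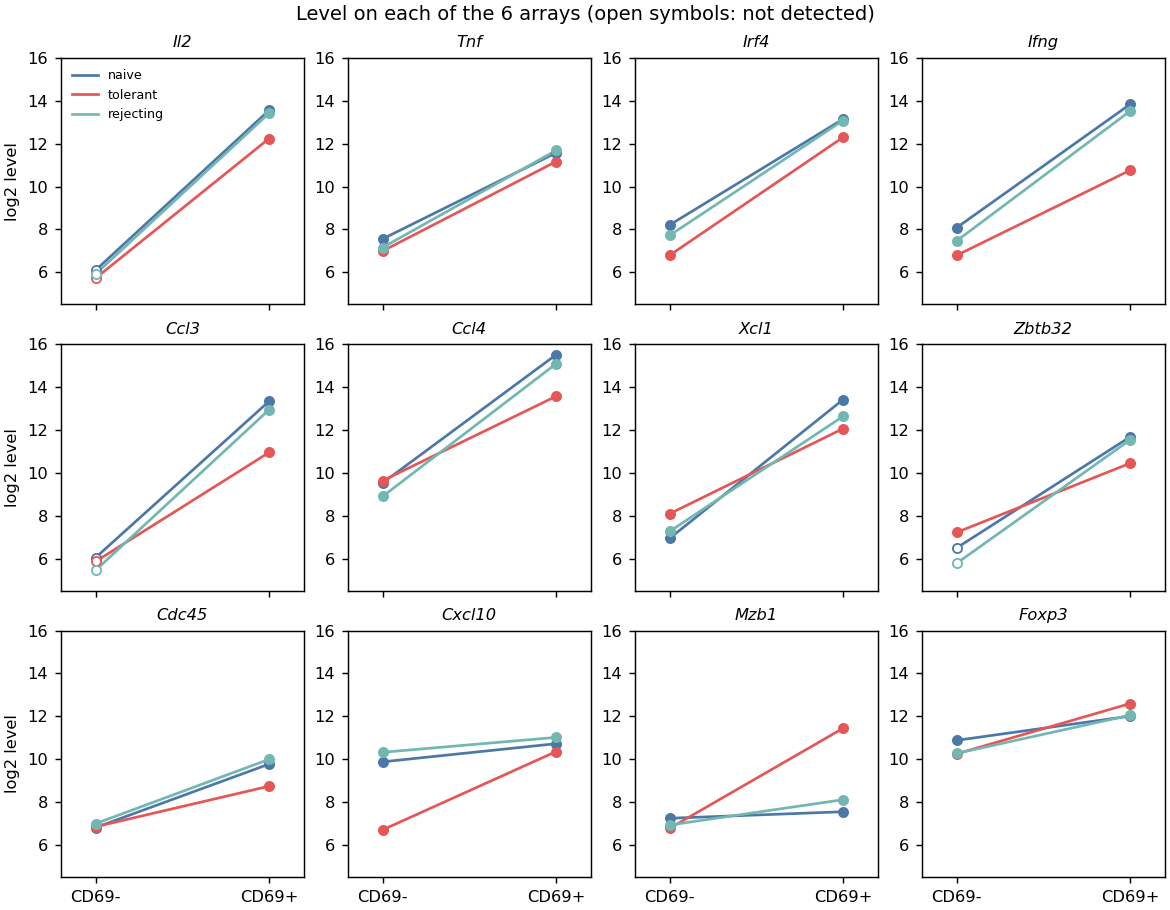
Log2 levels of 12 genes in CD69- and CD69+ cells on the 6 arrays, 1 array per point. Lines join the samples of each kind of mouse, and open points are levels that were not detected. Tnf and Irf4 run nearly in parallel, and the tolerant line of Il2 is somewhat flatter than the others. The tolerant lines of Ifng, Ccl3, Ccl4, Xcl1 and Zbtb32 are flatter still. Cxcl10 starts lower in tolerant CD69- cells, at 6.70, and Mzb1 ends higher in tolerant CD69+ cells, at 11.44.

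Ribosome biogenesis, nucleotide synthesis and DNA replication genes were mostly kept, with smaller differences than in the other pairs. Over all features the tolerant difference lay below both others in 4189 and above both in 4186 of 10687, but below both in 73.9% of shared higher features, against which the counts of the lists are to be read. All 23 measured ribosome biogenesis genes had a smaller difference in the tolerant pair than in either other pair, also with array medians centred and relative to the median of all features, with a median of 1.59 against 2.10 and 2.05. Of the 18 shared, 17 were kept and 1 was blunted. That gene was Gnl3, a nucleolar GTP-binding protein, at 9.05 in tolerant CD69+ and 8.95 in CD69- cells, 10.23 and 8.75 in naive, and 10.06 and 8.69 in rejecting cells. The tolerant levels were close to each other, and the other pairs differed by 2.79-fold and 2.58-fold. Polr1b, the second subunit of RNA polymerase I, was in contrast 10.4-fold higher, against 11.3-fold and 12.2-fold.

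Nucleotide synthesis genes had a median of 1.36 against 1.88 and 1.98, with 14 of 15 below both other pairs. Pfas, a purine synthesis enzyme, was blunted at 3.90-fold against 8.70-fold and 8.90-fold, while Cad, which starts pyrimidine synthesis, was 7.03-fold against 7.25-fold and 6.73-fold. DNA replication genes had a median of 1.30 against 1.67 and 1.64, with 21 of 25 below both (23 of 25 with array medians centred and relative to all features). Cdc45, part of the replicative helicase, was 8.74 in tolerant CD69+ and 6.85 in CD69- cells, 9.77 and 6.81 in naive, and 9.99 and 6.99 in rejecting cells. Its CD69- levels were alike and its CD69+ level was lower in tolerant mice, giving 3.71-fold against 7.80-fold and 8.01-fold. Proteasome subunits had a median of 0.84 against 1.08 and 1.07, and 4 of 21 were 2-fold higher in the tolerant pair against 16 and 12. Among amino acid genes, the carrier Slc38a1 was at 8.40 and 8.39 in tolerant cells, with no difference to speak of, against 2.24-fold and 2.10-fold in the other pairs. That shared response rests on 1 probe. A second Slc38a1 probe had log2 differences of -0.57 in the tolerant, 0.44 in the naive and 0.115 in the rejecting pair. Mitosis genes, with a median of 1.32 against 1.00 in naive and 1.61 in rejecting mice and 8 of 13 below both, and sterol synthesis genes, with 1.17 against 1.44 and 0.96 and 6 of 13 below both, did not share this order. Of 22 amino acid genes 12 were below both. No gene of these lists passed the test of the difference between pairs, with limma adjusted p-values of 0.107 for Gnl3, 0.12 for Pfas and 0.133 for Cdc45 and Slc38a1.

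**Figure D3:**
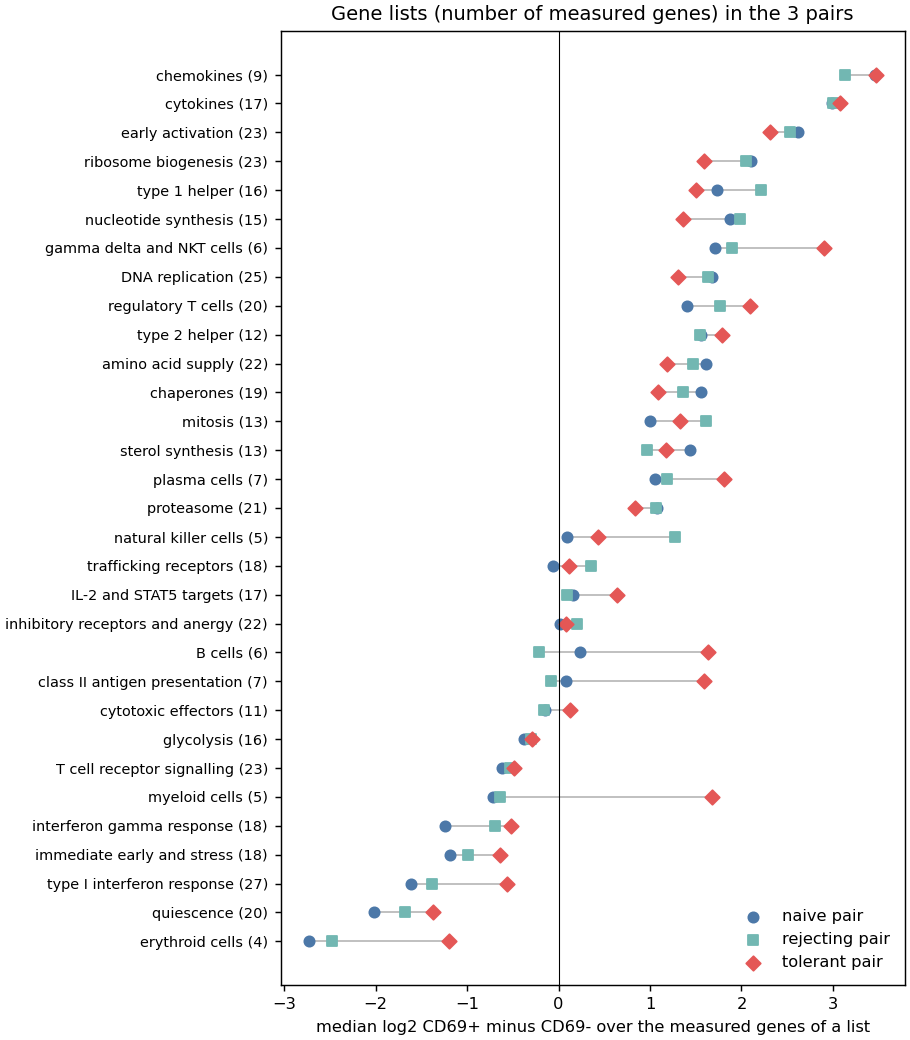
Median log2 CD69+ minus CD69- difference over the measured genes of 31 lists, with the number of genes in brackets, in the naive, rejecting and tolerant pairs. The tolerant symbol lies closest to 0 for ribosome biogenesis, nucleotide synthesis, DNA replication, quiescence and type I interferon response, and further to the right for markers of B cells (1.63), class II antigen presentation (1.59), myeloid cells (1.68, but -0.009 with no detection filter) and gamma delta and NKT cells (2.90).

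Genes of resting T cells were lower in CD69+ cells of every pair. Of 20 measured quiescence genes, 12 were at least 2-fold lower in the tolerant pair, against 14 in the naive and 12 in the rejecting pair, with medians of -1.37, -2.02 and -1.68, and all 12 shared responses were kept. Klf2, which holds T cells in quiescence and in circulation, was 13.05 in tolerant CD69+ and 14.87 in CD69- cells, 11.51 and 14.77 in naive, and 12.02 and 14.73 in rejecting cells. CD69- levels were alike, and the tolerant CD69+ level was the highest of the CD69+ samples. Pik3ip1, an inhibitor of PI3 kinase, followed the same order, at 10.31 in tolerant CD69+ cells against 8.61 and 9.46, and 12.92 in CD69- cells against 12.82 and 12.80. The cell cycle inhibitor Cdkn1b was 6.75-fold lower in tolerant CD69+ cells, and Il6ra, a receptor chain for interleukin 6, 6.73-fold lower. The furthest lower genes of the pair were the chemokine receptor Cxcr1, at least 13.6-fold, and the immediate early gene Fos, 12.0-fold, which was 22.1-fold lower in naive and 9.01-fold lower in rejecting mice.

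Genes induced by interferon alpha and beta were lower in CD69+ than in CD69- cells in naive and rejecting mice, and this difference was smaller in tolerant mice. Of 27 measured members, 19 in the naive and 16 in the rejecting pair were at least 2-fold lower, against 8 in the tolerant pair, with medians of -1.61, -1.38 and -0.56. The tolerant value lay above both others in 24 of 27 genes, the same number as with array medians centred and relative to all features. It did so in 4186 of all 10687 features, but in 79% of all shared lower features. The 16 shared members had a median ratio to the other pairs of 0.65, against 0.744 for all shared lower features. The median level of the 27 genes, as a deviation from each gene's mean over all arrays, was lowest in tolerant mice in both fractions. In CD69- cells it was -0.744 in tolerant, 0.804 in naive and 1.465 in rejecting mice. In CD69+ cells the tolerant value of -1.068 was closer to the naive -0.744 than to the rejecting 0.378. Not every gene followed, since Parp14 was 12.50 in tolerant and 12.28 in naive CD69+ cells. Against the mean of the other samples of the same fraction, the median deviation was -1.90 log2 units in CD69- and -1.12 in CD69+ cells. The summed level of the list was 55935 in tolerant CD69- cells, against 114466 in naive and 164992 in rejecting, and 38623 in tolerant CD69+ cells against 48733 and 82352.

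Isg15, a ubiquitin-like protein induced by interferon, was 11.56 in tolerant CD69+ and 10.81 in CD69- cells, 12.95 and 13.28 in naive, and 13.74 and 14.22 in rejecting cells. It was 1.67-fold higher in tolerant CD69+ cells and 1.25-fold and 1.39-fold lower in the others, and the lowest level of all was that of tolerant CD69- cells. Ifit3, an antiviral RNA-binding protein, kept its direction, at 10.24 in tolerant CD69+ and 11.95 in CD69- cells, 11.63 and 14.19 in naive, and 13.04 and 14.90 in rejecting cells. The 4 blunted members were Oas2, Oasl1, Mx2 and Stat2, and of these Oas2, Oasl1 and Mx2, which encode antiviral proteins, were not detected in either tolerant sample, so that no tolerant difference can be measured for them. The lowest limma adjusted p in the list was 0.053, for Oas2.

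Cxcl10, a chemokine induced by interferons, gave the lowest adjusted p of any named gene. Its level was 10.35 in tolerant CD69+ and 6.70 in CD69- cells, 10.72 and 9.88 in naive, and 11.02 and 10.32 in rejecting cells. The CD69+ levels were close to each other, and the tolerant CD69- level stood more than 3 log2 units under the other CD69- samples. The difference was 12.6-fold in tolerant, 1.80-fold in naive and 1.62-fold in rejecting mice (log2 value 2.88, SE 0.21, limma adjusted p = 0.0272). Gbp3, a GTPase induced by interferon gamma, was 12.55 in tolerant CD69+ and 12.34 in CD69- cells, 12.22 and 13.76 in naive, and 12.61 and 13.76 in rejecting cells. Again the CD69+ levels were alike and the CD69- level was low in tolerant mice (limma adjusted p = 0.112), as it was at a second Gbp3 probe, with differences of -0.27, -1.47 and -1.09 in the tolerant, naive and rejecting pair.

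The promoters of these 3 genes are shown because the CD69- level of all 3 was lowest in tolerant mice and because they carry the motif that interferon-activated factors are known to bind. The motif searched was GAAA, any 2 bases and GAAA again, on both strands, with overlapping matches allowed, in the window from 250 bases before to 50 after each start in RefSeq promoters of GRCm38.p6. Capitals mark the matches, and the lines give the 250 bases before the start on the strand of the gene. The regions are chr5:92348890-92349139 on the minus strand for Cxcl10, chr4:156200819-156201068 on the minus strand for Isg15 and chr3:142559794-142560043 on the plus strand for Gbp3.
Cxcl10: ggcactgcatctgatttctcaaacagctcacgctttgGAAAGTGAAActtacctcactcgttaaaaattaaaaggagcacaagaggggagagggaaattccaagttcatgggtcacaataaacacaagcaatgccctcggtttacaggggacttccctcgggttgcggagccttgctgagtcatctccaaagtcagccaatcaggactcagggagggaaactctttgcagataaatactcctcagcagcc
Isg15: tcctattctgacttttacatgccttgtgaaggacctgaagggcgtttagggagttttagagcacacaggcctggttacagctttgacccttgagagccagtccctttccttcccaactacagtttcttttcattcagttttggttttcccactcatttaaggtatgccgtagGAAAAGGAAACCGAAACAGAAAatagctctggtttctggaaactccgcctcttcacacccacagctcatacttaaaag
Gbp3: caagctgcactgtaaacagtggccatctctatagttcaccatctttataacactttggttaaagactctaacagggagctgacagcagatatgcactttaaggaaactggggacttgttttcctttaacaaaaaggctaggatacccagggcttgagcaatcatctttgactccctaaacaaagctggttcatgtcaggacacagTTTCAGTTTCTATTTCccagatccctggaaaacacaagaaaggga
The motif stood in 9 of the 18 measured type I interferon genes with a promoter in the table and in 10 of 18 interferon gamma genes, against 3.99% of 27025 genes and 3.44% of 32851 promoters. A match describes letters in the window and is no evidence that a factor bound there.

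**Figure D4:**
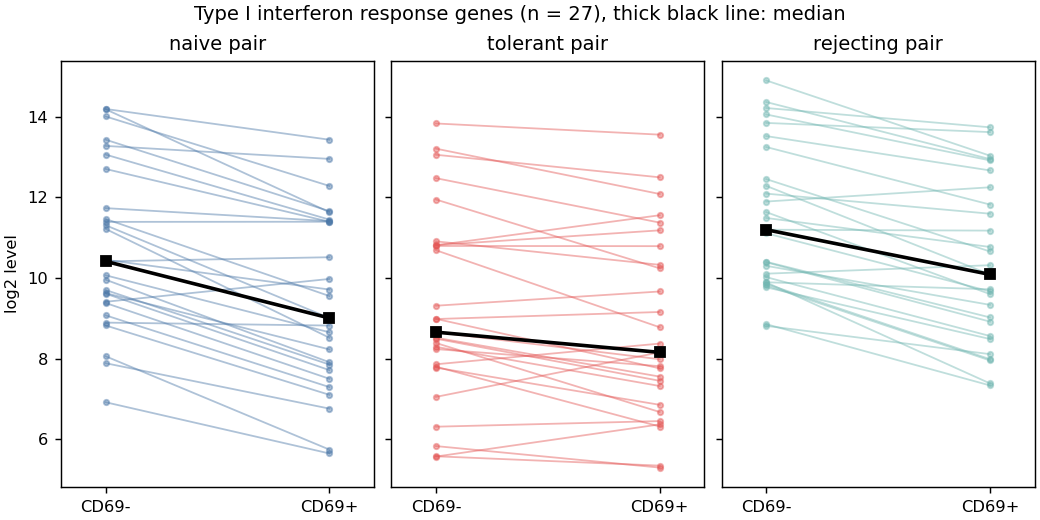
Log2 levels of 27 type I interferon response genes in CD69- and CD69+ cells, with 1 thin line per gene and the median as a thick black line. The lines slope down from CD69- to CD69+ cells in the naive and rejecting pairs, with list medians of -1.61 and -1.38, and less so in the tolerant pair, at -0.56, whose CD69- levels start lower.

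Regulatory T cell genes went the other way and were mostly as high or higher in the tolerant pair. Of 20 measured genes, 15 were at least 2-fold higher in tolerant CD69+ cells, 15 of 20 exceeded both other pairs (4186 of 10687 over all features), also with array medians centred and relative to all features, and the median was 2.10 against 1.40 and 1.76. Foxp3, the factor that defines regulatory T cells, was 12.59 in tolerant CD69+ and 10.25 in CD69- cells, 12.01 and 10.88 in naive, and 12.05 and 10.27 in rejecting cells. The tolerant CD69+ level was the highest of all, and the difference was 5.09-fold against 2.19-fold and 3.43-fold (limma adjusted p = 0.28). Of 3 further detected Foxp3 probes, 2 gave the same order and 1 differed by -0.58, -0.28 and -0.44 in the tolerant, naive and rejecting pair. Tnfrsf9, a costimulatory receptor, was 13.03 in tolerant CD69+ and 9.33 in CD69- cells, 12.96 and 10.61 in naive, and 12.83 in rejecting CD69+ cells, whose CD69- level lay between the others. Its CD69+ levels were alike and its CD69- level was lowest in tolerant mice, giving 13.0-fold against 5.12-fold and 7.11-fold. Il2ra, the high-affinity interleukin 2 receptor chain, was 2.42-fold higher against 2.96-fold and 3.36-fold, while a second Il2ra probe placed the tolerant pair highest, with log2 differences of 2.67 against 2.31 and 2.62. Cish, a feedback inhibitor induced through STAT5, was 7.21-fold higher against 4.30-fold and 4.62-fold. No gene of the list passed the test of the difference between pairs.

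Klrg1, an inhibitory lectin receptor of effector and some regulatory T cells, was stronger in the tolerant pair with undetected levels taken as measured. It was 9.84 in tolerant CD69+ and 5.57 in CD69- cells, 8.97 and 5.95 in naive, and 8.64 and 6.07 in rejecting cells, and it was not detected in any CD69- sample, so that the folds are at least 9.0, 5.31 and 3.55. As bounds, the tolerant and naive folds are less than 2-fold apart. The other named genes of the stronger class included Mmp9, a secreted protease, Dusp4, a phosphatase of MAP kinases, and Tmem176a, a membrane protein, at least 6.43-fold, 10.5-fold and 8.24-fold higher in tolerant mice. All 3 were undetected in tolerant CD69- cells, and their class takes such levels as measured. The bound of Dusp4 is less than 2-fold above its 6.46-fold difference in naive mice. The class of Dusp4 rests on 1 probe, since 3 further probes had tolerant log2 differences of 0.88, 2.56 and 3.98 against 1.92, 2.77 and 3.21 in naive and 1.19, 2.45 and 3.90 in rejecting mice. Only 11 of the 50 stronger features were named genes, and with undetected levels raised 29 features were stronger.

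A set of features was higher in the tolerant pair and in neither other pair. This held for 79 features (0.739%) higher and 18 (0.168%) lower, against 9 and 9 (0.0842% each) in the naive pair only and 5 (0.0468%) and 7 (0.0655%) in the rejecting pair only. Of the 79, 51 (64.6%) were probes without a gene name here, against 21.9% of all features. Tolerant CD69+ cells also had 236 features detected on no other array, 99 of them unnamed, against 41 to 153 on each of the other arrays. The test across all features called 87 features (0.814%) higher in the tolerant pair, with 1842 of either direction at an unadjusted p under 0.05 and a lowest limma adjusted p of 0.0234. Of the 87, 80 were unnamed probes, with log2 values between 1.84 and 4.86, and 46 were detected only in tolerant CD69+ cells. Those 46 were tested only because of the sample in which they are high, so their calls are no support for a difference, and with detection required on all 6 arrays 16 features were called higher and 7 lower. The 87, those 46 included, lay a median of 3.20 log2 units above the mean of the other CD69+ samples in tolerant CD69+ cells. In CD69- cells they lay a median of 0.03 above the other CD69- samples. Since the 87 were called on this difference, the medians describe their choice and are no support for it. The 7 named ones were Cxcl10, Prg2, Fcer1g, Ly6d, Fcmr, Mzb1 and Chst1, of which Fcer1g, Ly6d and Chst1 were named after their values were seen. Prg2, Ly6d and Chst1 were detected only in tolerant CD69+ cells.

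Mzb1, a chaperone of antibody-secreting and marginal zone B cells, was 11.44 in tolerant CD69+ and 6.77 in CD69- cells, 7.54 and 7.24 in naive, and 8.11 and 6.92 in rejecting cells. The tolerant CD69+ sample stood more than 3 log2 units above the 5 other samples, and the difference was 25.4-fold against 1.24-fold and 2.27-fold (log2 value 3.92, SE 0.40, limma adjusted p = 0.0413). Fcmr, a receptor for immunoglobulin M, was 8.60 in tolerant CD69+ cells and not detected in CD69- cells, at 6.15, against 8.07 and 7.63 in naive and 7.76 and 7.50 in rejecting cells. Here the tolerant pair departed at both ends (log2 value 2.10, SE 0.21, limma adjusted p = 0.0407). Prg2, a granule protein of eosinophils, was detected only in tolerant CD69+ cells, at 9.26, and was at least 6.02-fold higher there than in CD69- cells. The calls of Mzb1 and Fcmr did not hold when limma was run on named genes alone, where the lowest adjusted p was 0.129.

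Some lists of markers of other cells, but not all, also had a higher difference in the tolerant pair. Class II genes, carried by antigen-presenting cells, had a median of 1.59 in the tolerant pair against 0.08 and -0.09, and all 7 measured members lay above both other pairs, while their summed level of 11828 in tolerant CD69+ cells lay between 8162 in naive and 13021 in rejecting CD69+ cells and was 12538 in tolerant CD69- cells against 17678 and 25607. Cd74, the invariant chain, was 11.66 in tolerant CD69+ and 8.31 in CD69- cells, 10.97 and 9.15 in naive, and 11.04 and 9.11 in rejecting cells, or 10.2-fold against 3.54-fold and 3.79-fold (limma adjusted p = 0.086). H2-Ab1, a class II chain, was 10.44 and 8.85 in tolerant, 9.55 and 9.28 in naive, and 10.08 and 9.61 in rejecting CD69+ and CD69- cells. In both genes the tolerant CD69+ level was the highest and the tolerant CD69- level the lowest of the 6 samples. H2-Ob, a modulator of class II loading, was in contrast lower in CD69+ cells of every pair, 5.50-fold in tolerant mice, and H2-Aa, H2-DMb1 and Ciita, the class II activator, were not detected on any array.

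B cell markers had a median of 1.63 against 0.24 and -0.21 over 6 measured genes, 2 of which were detected only in tolerant CD69+ cells, and their summed level was 3900 in tolerant CD69+ cells against 1370 to 2299 in the other samples. Of 15 with a probe, 9 were not detected on any array, among them the defining markers Ms4a1, Pax5 and Cd22. In the authors' value table, which has no background subtraction, the tolerant medians were smaller, at 0.69 for B cell, 0.77 for class II, 0.90 for myeloid and 1.14 for plasma cell markers. Plasma cell markers had a median of 1.81 against 1.05 and 1.18, with sums of 28416 in tolerant CD69+ against 28017 and 28724 in the other CD69+ samples, and Jchain, Sdc1, Prdm1 and Tnfrsf17 were not detected. Myeloid markers summed to 1649 in tolerant CD69+ cells against 356 to 557 elsewhere, from 5 detected of 21 with a probe, and Csf1r, Lyz2, Itgam and Cd14 were among the 16 not detected. Prg2, a member of the list, was detected in that sample alone, and with no detection filter the tolerant median of the list turned from 1.68 to -0.009. Gamma delta and NKT cell markers summed to 10084 in tolerant CD69+ cells against 4663 in naive and 3271 in rejecting CD69+ cells, with a median of 2.90 against 1.71 and 1.89. Among them Cd163l1, a scavenger receptor of gamma delta T cells, was 11.84 in tolerant CD69+ and 8.82 in CD69- cells, 10.41 and 8.29 in naive, and 9.72 and 8.15 in rejecting cells, so that the tolerant levels were the highest of both fractions. Of 11 gamma delta and NKT markers with a probe, 6 were detected, and Il17a, Il23r, Sox13 and Maf were among the 5 not detected on any array. Blk counts in this list and in the B cell list. Natural killer markers had a median of 0.43 against 0.09 and 1.27, from 5 detected of 12 with a probe, and Ncr1 was among the 7 not detected. The part of these cells in the tolerant differences was not tested.

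**Figure D5:**
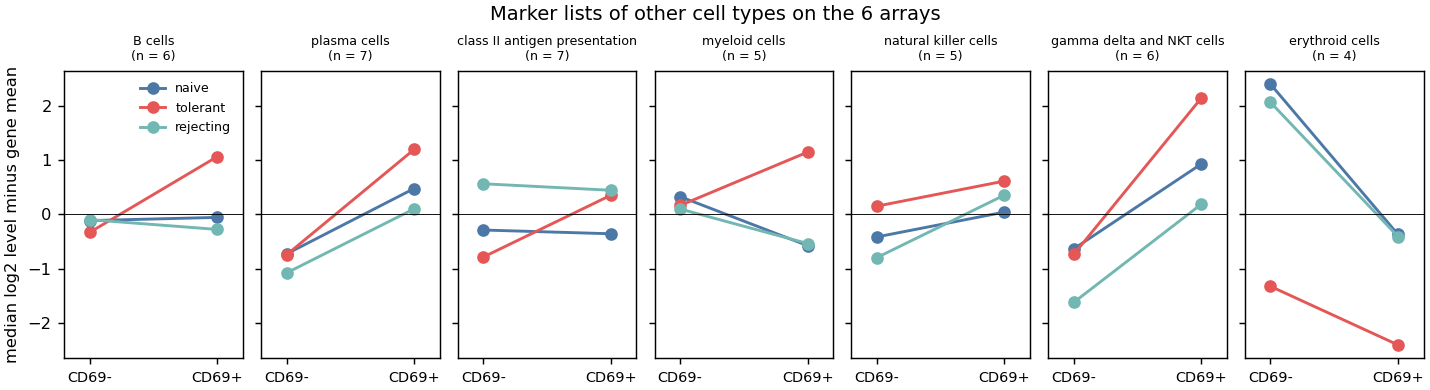
Median log2 level of 7 marker lists, as a deviation of each gene from its own 6-array mean, in CD69- and CD69+ cells of the 3 kinds of mice. B cell, myeloid and gamma delta and NKT lists are highest in tolerant CD69+ cells, and the erythroid list is lowest in both tolerant samples.

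Red cell genes stood apart in the tolerant samples. Hbb-bs, an adult beta globin gene, was 8.93 in tolerant CD69+ and 9.87 in CD69- cells, 10.95 and 13.63 in naive, and 10.82 and 13.25 in rejecting cells. Both tolerant levels were the lowest of their fraction, and the difference of 1.92-fold lower compared with 6.40-fold and 5.39-fold (limma adjusted p = 0.086). Hba-a1 and Hbb-bt were blunted in the same way, and since globin genes are near-identical copies their probes may share RNA. The summed level of the list was 2822 in tolerant CD69- cells against 37589 in naive and 29299 in rejecting, and the part of red cell RNA in the other differences was not tested. The other blunted lower genes included Tmem140, a membrane protein, at 7.10 in tolerant CD69+ and 7.96 in CD69- cells, and Slpi, a protease inhibitor, at 7.53 and 9.08. Neither was detected in naive or rejecting CD69+ cells, and Tmem140 had a limma adjusted p of 0.056.

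By normalized levels, 2 of all features were at least 2-fold higher in tolerant CD69+ cells and at least 1.5-fold lower in CD69+ cells of both other pairs, and 0 were opposite in the other direction. They were Kit, the receptor for stem cell factor, and Fcer1g, an adaptor chain of Fc receptors in myeloid and other cells. Kit was detected on all 6 arrays. The level of Kit was 8.51 in tolerant CD69+ and 7.37 in CD69- cells, 7.99 and 8.61 in naive, and 7.55 and 8.53 in rejecting cells. It was 2.21-fold higher in tolerant CD69+ cells and 1.54-fold and 1.97-fold lower in naive and rejecting CD69+ cells, with both tolerant samples outside the range of their fraction (log2 value 1.94, SE 0.24, limma adjusted p = 0.065). Fcer1g was detected in tolerant CD69+ cells, at 8.04, and not in CD69- cells, at 6.25, at least 2.59-fold higher. Naive and rejecting mice had it detected only in CD69- cells, at 7.22 and 7.00, which gives CD69+ levels at least 1.38-fold and at least 1.27-fold lower, short of 1.5-fold as bounds (limma log2 value 2.48, SE 0.20, limma adjusted p = 0.0304). Gpnmb, a glycoprotein of myeloid cells, was 9.40 in tolerant CD69+ and 7.72 in CD69- cells, above every other sample, where levels ran from 6.80 to 7.27. Tnfrsf1b, the second receptor for TNF, was 2.87-fold higher in tolerant and 1.30-fold and 1.26-fold higher in naive and rejecting CD69+ cells. Of 2 further Tnfrsf1b probes, 1 had the same order and 1 differed by 0.03 in the tolerant pair against 1.35 and 0.19.

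Of the 18 features lower in the tolerant pair only, 14 were named genes. Ddx5, an RNA helicase, was 8.96 in tolerant CD69+ and 10.60 in CD69- cells, 10.21 and 10.49 in naive, and 10.21 and 10.53 in rejecting cells. Only the tolerant CD69+ sample stood apart. Eif4b, a translation factor, was 2.33-fold lower, Cbx3, a heterochromatin protein, 2.58-fold lower, and Acot2, a mitochondrial thioesterase, 2.74-fold lower, and none of the 3 differed by more than 1.33-fold in either other pair. A second Acot2 probe differed by -0.05 in the tolerant pair. A second Cbx3 probe differed by -0.66 in the tolerant, -0.46 in the naive and -0.36 in the rejecting pair. Their limma adjusted p-values ran from 0.104 for Ddx5 to 0.138 for Acot2.

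Among the study's criteria for candidate tolerance genes, the second and the third concern this pair, an expression at least 1.5-fold higher in CD69+ than in CD69- cells and a signal of at least 500 in CD69+ cells. They were met by 1772 features, 1432 of them named, and 1505 of the 1772 were also at least 1.5-fold higher in both the naive and the rejecting pair. Of the genes named here, 56 had other detected probes, 85 in all, and 77 of the 85 differed in the same direction in the tolerant pair as the probe used.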

How the data were processed

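The data are 1 single-colour array with biotin label per sample, prepared from 0.55 µg of total RNA. The authors deposited a table of non-normalized signal intensities, linear and not background-subtracted, and a detection p-value for every probe on each array, per the file headers, and array medians ran from 161.5 to 174.2. They used GenomeStudio 2009.2, per the submitters' processing notes. Their deposited value table appears to hold quantile-normalized intensities with no background subtraction. Its column medians were all 168.3 and its rank correlation with each array was 1, which alone do not show the method. Its counts were identical to those of the signals quantile-normalized here without background correction. It served as an alternative.

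Intensities were corrected with limma 3.58.1 in R 4.3.3 (normexp with the background inferred from the detection p-values, offset of 16), quantile normalized over all 6 arrays and set on a log2 scale. Features detected at a p under 0.01 on at least 1 array were kept, with the brightest probe per symbol, so a feature may have entered only through the sample in which it is high. Of 45281 probes, 34885 had 1 gene symbol in the platform annotation, 18 had several and 10378 had none here. Where the dim side of a pair was not detected, the fold is a lower bound against the lowest detected level of that array, 6.56 to 6.82. The difference between pairs was tested with limma on the 3 pair differences, tolerant minus the mean of naive and rejecting, 2-sided with Benjamini-Hochberg adjustment over all features. Its spread comes from naive against rejecting alone, with 1 residual and 3.67 prior degrees of freedom, and the tolerant pair is assumed to vary like them. The script was tested on simulated data. The number of arrays limits the precision, and nothing says that samples came from separate animals or batches.

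Named genes are the 10 furthest higher and lower in the tolerant pair, the 8 largest gaps of each class, the 10 lowest limma p, up to 5 per list and 9 fixed T cell genes, at a signal of at least 500. Tbx21, Mx2, Stat2, Fcer1g, Ly6d and Chst1 were named after their values were seen. Members, classes and 31 gene lists were chosen with earlier results of these data known. The comparison was not replicated, so gene lists are described by counts and medians. Alternatives were the authors' table, no background correction, median centring, an offset of 50, other detection filters, every probe on its own, raised undetected levels, other fold and signal minimums, 1 reference pair, a variance trend and named genes only.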

Additional observations from a re-analysis of the deposited data

Results flagged for a closer look

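Differences between the tolerant pair and the other pairs that passed the limma test were flagged, 87 features higher and 3 lower. On the log2 scale the tolerant difference minus the mean of the others was 3.92 for Mzb1, 3.40 for Prg2, 2.88 for Cxcl10, 2.48 for Fcer1g, 2.14 for Ly6d, 2.10 for Fcmr and 1.89 for Chst1, and it was -2.51 for Cyp11a1, -2.30 for Ccl3 and -2.15 for Ccl4. Prg2, Ly6d and Chst1 were detected only in tolerant CD69+ cells, and Cyp11a1 only in naive and rejecting CD69+ cells, so they were tested only through the samples in which they are high. Each of these 10 genes lost its call when limma was run on named genes alone. Kit was flagged because its tolerant CD69+ cells were higher by a log2 difference of 1.14 while both other pairs went the opposite way, and that difference did not pass the test, with an adjusted p of 0.065. The causes of these differences were not tested.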

How the results depend on the processing

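With 1 array per sample, each count below rests on single arrays, signals near the background are the least precise, and no replicate could be left out. No paired analysis was possible because the labels give no replicate numbers to serve as a block, beyond the pairing of CD69+ with CD69- cells of the same kind of mice that every comparison uses. The median share of the response retained in the tolerant pair held under every alternative run, from 0.755 to 0.854 for shared higher and from 0.658 to 0.78 for shared lower features. Counts within 1.5 times the main ones are not repeated, and apart from the changes that a minimum or a filter makes by its construction the cause was not tested. The limma calls, 87 higher and 3 lower, became 222 and 27 with array medians centred, 349 and 156 in the authors' value table and with no background correction, which gave identical counts, 157 and 21 at an offset of 50, 179 and 73 with undetected levels raised, 490 and 257 with an intensity trend and robust variance, 16 and 7 among features detected on all 6 arrays, 52 and 0 with no detection filter, and 0 and 0 on named genes alone, where 1519 had an unadjusted p under 0.05. With every probe on its own 8 were lower.

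The 2-fold counts in the tolerant pair, 1452 higher and 1217 lower, became 930 and 660 in the authors' table and with no background correction, 2446 and 2635 at a 1.5-fold and 476 and 115 at a 4-fold minimum. Only 746 were lower with medians centred, 1871 were lower with every probe on its own, and 802 were higher among features detected on all 6 arrays.

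The shared higher features, 1485, became 2347 at 1.5-fold and 417 at 4-fold, of which 360 were kept, 34 blunted and 23 stronger. The shared lower features, 1389, became 2490 at 1.5-fold, with 1923 kept and 4 opposite, 174 at 4-fold, with 155 kept and 19 blunted, and 878 in the authors' table and with no background correction, with 812 kept and 16 blunted. With medians centred 820 shared lower features were kept. Blunted higher features, 78 at first, numbered 50 with medians centred, 15 in the authors' table and with no background correction, 27 among features detected on all 6 arrays, 139 with every probe on its own, 41 at an offset of 50, 38 at a signal minimum of 500, 189 (and 2 opposite) against the naive pair alone and 137 against the rejecting pair alone. Blunted lower features, 47 at first, numbered 20 among features detected on all 6 arrays, 81 with every probe on its own, 28 with undetected levels raised, 26 at an offset of 50, 28 at a signal of 500, 256 (and 1 opposite) against the naive pair alone and 83 (with 1 opposite and 2 stronger) against the rejecting pair alone. Stronger higher features, 50 at first, numbered 20 in the authors' table and with no background correction, 11 over named genes only, an alternative chosen after seeing the data, 9 if detected on all 6 arrays, 29 with undetected levels raised, 18 at a signal of 500 and 85 against the rejecting pair alone.

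Features higher in the tolerant pair only, 79 at first, numbered 37 at 4-fold, 28 over named genes only, 12 if detected on all 6 arrays and 29 at a signal of 500. Those lower in it only, 18 at first, numbered 0 at 4-fold, 2 in the authors' table and with no background correction, 7 if detected on all 6 arrays, 8 with undetected levels raised, 5 at an offset of 50 and 6 at a signal of 500. The median of the myeloid markers, 1.68, turned to -0.009 with no detection filter, which adds the undetected markers. Among lists and genes with a main log2 value of at least 1 in size, no other changed its sign. Sign changes of smaller values were not counted. The sizes were less stable, since 92 of the values of single lists and 385 of those of single genes moved by more than the spread taken from the naive and rejecting pairs. Of the called genes followed across settings, Cxcl10 held in 9 of 10, Ccl4 and Mzb1 in 8 of 10, and Prg2 in 8 of 9. Ccl3, Cyp11a1 and Fcmr held in 7 of 9 settings. Each of them lost its call on named genes alone.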
